A study of Mus musculus with 18 samples.

Results

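Genes of bile acid handling, together with the FGF co-receptor gene *Klb*, were examined across colon libraries of WT and *Cldn2*KO mice. The 8 genes, of 47729 in the count table, were *Nr1h4* and *Gpbar1* (receptors), *Slc10a2*, *Slc51a*, *Slc51b* and *Abcc3* (transporters), *Fabp2* (intracellular lipid binding) and *Klb*. They were listed by name and selected on these libraries with their values in view, so their levels and differences are a description. No p-value is printed for any of them, and where the calls of a fit over all genes are given for them, nothing is supported by those calls. All 8 passed the filter on low counts.

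Mice were C57BL/6 WT mice or mice with a knockout of *Cldn2*, the gene of the tight junction protein claudin-2. Each genotype had untreated controls, mice recovering from colitis induced with dextran sulfate sodium (DSS), which damages the lining of the colon, and mice given the carcinogen azoxymethane (AOM, 10 mg/kg, a single dose) with 3 cycles of 2.5% DSS, a model of colitis-associated cancer. Each of the 6 groups held 3 libraries of bulk colon RNA. The study describes the mice as sex-matched littermates and the recovery RNA as taken from distal colon, whereas the labels say only colon. The DSS concentration of the recovery groups and the age of the mice were not given in the sources used here, and the labels name no individual mice, although the group sizes of mice in the study match the number of libraries. The knockout was not restricted to a cell type by any label.

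Bile acids that escape uptake in the small intestine reach the colon. SLC10A2 (ASBT) takes up bile acids across the apical membrane, FABP2 binds fatty acids in the enterocyte cytosol, and the paired subunits SLC51A and SLC51B (OSTα and OSTβ), with ABCC3 (MRP3), release bile acids or their conjugates across the basolateral membrane. NR1H4 (FXR) is the nuclear bile acid receptor, which induces transporter and feedback genes, and GPBAR1 (TGR5) is the bile acid receptor of the cell surface. *Klb* encodes β-Klotho, the co-receptor through which FGF15 and FGF21 act on FGF receptors.

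NR1H4 binds DNA with RXR at paired copies of the hexamer AGGTCA, most often as an inverted repeat with a single spacer base, named IR-1. The RefSeq promoter windows (GRCm38.p6, 250 bases before to 50 after the start) covered 7 of the 8 genes. *Abcc3* had no window. The hexamer on either strand, AGGTCA or TGACCT, was found in 3 of the 7 windows and in 16.3% of all 32851 windows, and an exact IR-1 in 0 of the 7 and 0.00913% of all. The windows that held the hexamer were those of the receptor gene *Nr1h4* and of both subunits of the basolateral exporter, and they are printed 5′ to 3′ with the hexamer in capitals. They lie at chr10:89506609-89506908, chr16:32487830-32488129 and chr9:65422724-65423023, all on the minus strand. The match began at base -214 from the start in *Nr1h4*, at -58 in *Slc51a* and at -203 in *Slc51b*. The *Nr1h4* window lies at an internal start, within the gene as counted (89454234 to 89533585) and away from its 5′ end at 89533585. Those of *Slc51a* and *Slc51b* lie at the 5′ ends of their genes.
Nr1h4: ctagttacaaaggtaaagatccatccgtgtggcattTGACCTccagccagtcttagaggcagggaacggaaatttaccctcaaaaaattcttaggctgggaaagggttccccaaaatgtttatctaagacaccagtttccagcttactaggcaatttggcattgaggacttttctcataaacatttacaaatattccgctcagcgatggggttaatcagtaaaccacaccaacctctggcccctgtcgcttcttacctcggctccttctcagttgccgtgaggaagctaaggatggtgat
Slc51a: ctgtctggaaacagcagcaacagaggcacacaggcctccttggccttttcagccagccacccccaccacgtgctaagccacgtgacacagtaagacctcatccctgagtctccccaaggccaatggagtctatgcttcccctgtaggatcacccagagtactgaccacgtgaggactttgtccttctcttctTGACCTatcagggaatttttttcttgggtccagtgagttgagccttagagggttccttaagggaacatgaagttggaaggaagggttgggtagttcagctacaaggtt
Slc51b: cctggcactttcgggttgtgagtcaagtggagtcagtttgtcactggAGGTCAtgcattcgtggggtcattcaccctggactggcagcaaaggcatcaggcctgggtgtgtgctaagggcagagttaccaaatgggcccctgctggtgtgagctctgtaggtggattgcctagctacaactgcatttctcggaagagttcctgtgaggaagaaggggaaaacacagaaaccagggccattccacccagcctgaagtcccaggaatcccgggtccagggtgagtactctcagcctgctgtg
A letter match is not a binding site. Exact hexamers were not in the windows of *Slc10a2*, *Fabp2*, *Klb* and *Gpbar1*, which says only that these letters are not there.

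Libraries held 17.6 to 27.4 M reads. *Cldn2* stood at 44.5 to 504 CPM (counts per M reads of the TMM-scaled library size) in WT libraries and at most 0.557 CPM in *Cldn2*KO libraries. The libraries did not divide by group alone. *Hoxb13*, a marker of the distal colon, was at 198 to 570.1 CPM in 11 libraries. It was at most 0.502 CPM in all 6 of recovery, and WT control replicate 2 (0.327 CPM) was like them. The summed level of 6 distal *Hox* genes was 1.77 to 3.59 CPM in recovery, 11 CPM in WT control replicate 2 and 521 to 892 CPM elsewhere. *Xist*, a sex-linked marker, was above 10 CPM in 6 libraries, replicates 2 and 3 of WT recovery, *Cldn2*KO recovery and *Cldn2*KO AOM/DSS. The remaining 12 did not exceed 1.16 CPM, so in these 3 groups replicate 1 did not come from the same mouse as the other replicates. All controls and all WT AOM/DSS libraries were among the 12. Although the study describes the mice as sex-matched, *Xist* was thus unbalanced between recovery and controls. The same held between *Cldn2*KO AOM/DSS and its controls, and between the genotypes after AOM/DSS. Smooth muscle markers summed to 667 to 2021 CPM in recovery and 3528 to 9601 CPM in controls, and macrophage markers to 26.8 to 70.6 CPM against 104 to 376 CPM. Epithelial markers summed to 8651 to 13390 CPM in recovery and 13233 to 17174 CPM in controls. Colonocyte markers summed to 53948 CPM in WT control replicate 2, to 5381 to 12174 CPM in the other controls and to 11567 to 46430 CPM in recovery, and adipocyte markers to 423 CPM in that library against 28.8 to 41.7 CPM in the other controls. The 12 markers of small intestinal epithelium summed to 387 to 1051 CPM in recovery, 216 to 470 CPM in WT controls and 94.9 to 181 CPM in *Cldn2*KO controls. Of the 8 that passed the filter, edgeR called 3 higher and 0 lower in WT recovery and 5 higher and 0 lower in *Cldn2*KO recovery. Their median log2 fold changes were 2.55 and 3.16, and 22.2% and 19.4% of all genes were called. Other lists held calls too. Called lower in WT and *Cldn2*KO recovery were 7 and 6 of 8 macrophage and 3 and 6 of 6 smooth muscle markers. So were 3 and 0 of 6 epithelial and 6 and 6 of 6 distal *Hox* markers, with 0 higher in these 4 lists. Enteroendocrine markers had 3 higher and 0 lower in WT and 3 higher and 1 lower in *Cldn2*KO. Of the 6 colonocyte markers, 1 was called higher and 3 lower in WT, and 1 higher and 2 lower in *Cldn2*KO. Their median log2 fold changes were -1.02 and -0.59, with 2 and 3 of 6 above 0. The colonocyte sums in recovery thus do not show a rise in most genes of that list. *Sis* reached 24.6 to 182 CPM in recovery and at most 1.90 CPM elsewhere, whereas *Apoa4*, *Lct*, *Gata4* and *Apoc3* were at most 1.25 CPM in every library. The part of these markers in the results was not tested. In bulk tissue, fewer cells of a type and less RNA per cell cannot be told apart. Recovery and the absence of *Hoxb13* cannot be told apart either, except through WT control replicate 2, so the members' values resting on that library are given with and without it. The 10 most abundant genes took 12.2% to 16.4% of reads in the 7 libraries without *Hoxb13* and 7.20% to 10.7% in the others, and TMM factors were 0.778 to 0.948 against 0.988 to 1.18. Mitochondrial genes took 7.01% to 9.67% in recovery, 8.54% in WT control replicate 2 and 4.01% to 6.33% in the other controls, and their 3.88% to 7.03% after AOM/DSS overlapped recovery. Their part in the results was not tested.

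**Figure D1:**
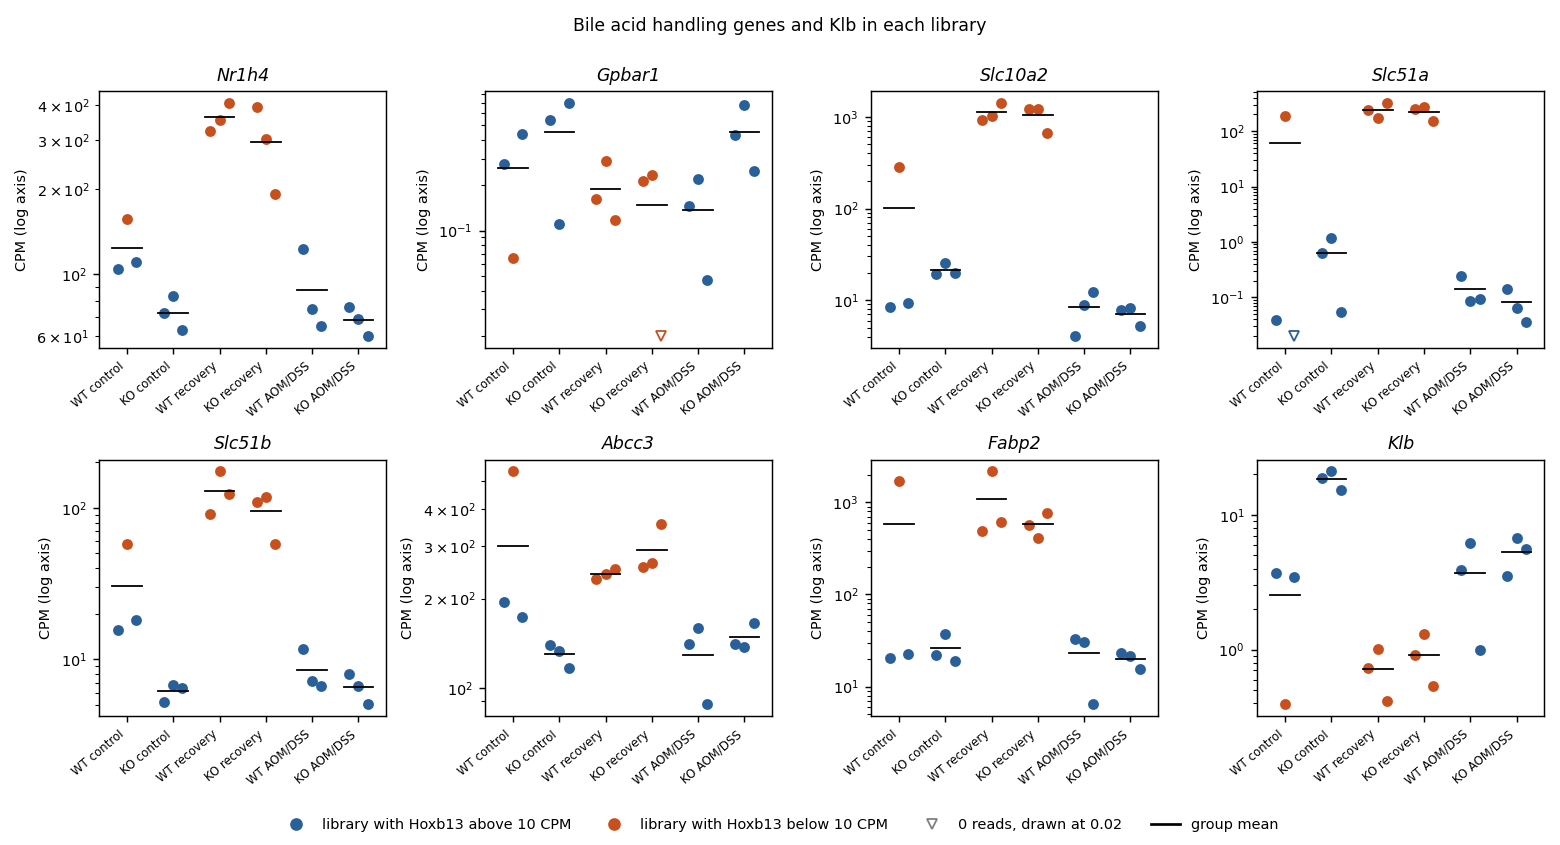
CPM (log axis) of each gene in the 18 libraries by group; points are libraries, coloured by whether *Hoxb13* exceeded 10 CPM, open triangles are libraries with 0 reads, and bars are group means. WT control replicate 2 lies with the recovery libraries for *Slc51a* (184 CPM) and *Fabp2* (1715 CPM), and *Klb* is highest in the *Cldn2*KO controls (15.3 to 21.1 CPM).

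*Slc51a*, a subunit of the basolateral exporter, had the widest spread of the 8 genes over the libraries (SD 5.04 in log2 CPM), followed by *Slc10a2* (3.31), *Fabp2* (2.73) and *Slc51b* (1.89). *Slc51a* (ENSMUSG00000035699, chromosome 16, 32475522 to 32487879, GRCm38) stood at 0.0393, 184 and 0 CPM in WT controls and at 0.641, 1.17 and 0.0538 CPM in *Cldn2*KO controls. In recovery it stood at 239, 171 and 321 CPM in WT and at 251, 267.3 and 155 CPM in *Cldn2*KO. After AOM/DSS it stood at 0.242, 0.0875 and 0.0946 CPM in WT and at 0.143, 0.0649 and 0.0352 CPM in *Cldn2*KO. The gene was thus near 0, on 0 to 21 reads, in every library with *Hoxb13*, and above 155 CPM in all 7 libraries without it. *Slc51a* overlaps *Pcyt1a* on the other strand, and since the strand setting of the counting was not given, its reads are uncertain in part.

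*Slc51b*, the partner subunit (ENSMUSG00000053862, chromosome 9, 65412753 to 65422773), stood at 15.6, 57.4 and 18.2 CPM in WT controls and at 5.23, 6.77 and 6.40 CPM in *Cldn2*KO controls. Recovery libraries held 91.1, 174 and 124 CPM in WT and 109, 119 and 57.7 CPM in *Cldn2*KO. AOM/DSS libraries held 11.6, 7.14 and 6.62 CPM in WT and 8.04, 6.62 and 5.04 CPM in *Cldn2*KO. All 3 WT controls lay above all 3 *Cldn2*KO controls, whereas the genotypes overlapped in recovery and after AOM/DSS. Unlike its partner, *Slc51b* kept at least 106 reads in every library. It overlaps *Rasl12* on the other strand and is uncertain to that extent.

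*Slc10a2* (ENSMUSG00000023073, chromosome 8, 5083219 to 5105351) stood at 8.41, 286 and 9.43 CPM in WT controls and at 19.3, 25.3 and 20.02 CPM in *Cldn2*KO controls. In recovery it stood at 925, 1013 and 1414 CPM in WT and at 1228, 1221 and 665 CPM in *Cldn2*KO. After AOM/DSS it stood at 4.07, 8.93 and 12.3 CPM in WT and at 7.84, 8.15 and 5.28 CPM in *Cldn2*KO. WT control replicate 2 lay below every recovery library and above every other library. The *Cldn2*KO controls lay above the other WT controls, the opposite of *Slc51b*.

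*Abcc3* (ENSMUSG00000020865, chromosome 11, 94343295 to 94392997) varied least among the members above 1 CPM. It stood at 194, 538 and 173 CPM in WT controls and at 139.6, 133 and 116 CPM in *Cldn2*KO controls. The recovery values were 233, 242 and 251 CPM in WT and 256, 264 and 358 CPM in *Cldn2*KO, without overlap between the genotypes. The AOM/DSS values were 141, 159 and 87.9 CPM in WT and 141, 138 and 165 CPM in *Cldn2*KO. WT control replicate 2 was the highest of the 18 libraries.

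*Fabp2* (ENSMUSG00000023057, chromosome 3, 122895072 to 122899506) stood at 20.4, 1715 and 22.9 CPM in WT controls and at 21.8, 37.6 and 19.1 CPM in *Cldn2*KO controls. In recovery it stood at 484, 2173 and 613 CPM in WT and at 570.1, 405 and 767 CPM in *Cldn2*KO. After AOM/DSS it stood at 32.6, 30.3 and 6.43 CPM in WT and at 23.0, 21.5 and 15.6 CPM in *Cldn2*KO. It overlaps *4933405D12Rik* on the other strand. Outside the libraries without *Hoxb13*, no group differed from another without overlap.

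Among the receptors, *Nr1h4* (ENSMUSG00000047638, chromosome 10, 89454234 to 89533585) separated the same libraries with a smaller range. It stood at 104, 157 and 110.3 CPM in WT controls and at 72.3, 83.2 and 62.8 CPM in *Cldn2*KO controls. The level in recovery was 324, 352 and 406 CPM in WT and 394, 302 and 192 CPM in *Cldn2*KO. The level after AOM/DSS was 123, 74.9 and 65.2 CPM in WT and 76.2, 68.8 and 59.99 CPM in *Cldn2*KO. The genotypes were apart only in controls, where all 3 *Cldn2*KO libraries were lower. *Gpbar1* (ENSMUSG00000064272, chromosome 1, 74278550 to 74279624) was near the limit of detection, with 0 to 21 reads and at most 0.7 CPM in every library, so a difference of ordinary size was not detectable at this depth.

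*Klb* (ENSMUSG00000029195, chromosome 5, 65348314 to 65384007) was lower in the libraries without *Hoxb13*, where the transporters were higher. It stood at 3.74, 0.393 and 3.45 CPM in WT controls and at 18.8, 21.1 and 15.3 CPM in *Cldn2*KO controls. In recovery it stood at 0.733, 1.004 and 0.414 CPM in WT and at 0.91, 1.30 and 0.541 CPM in *Cldn2*KO. After AOM/DSS it stood at 3.92, 6.22 and 0.993 CPM in WT and at 3.52, 6.72 and 5.57 CPM in *Cldn2*KO. The *Cldn2*KO controls were above all other libraries. In order of group means, *Cldn2*KO controls (18.4 ± 2.9 CPM, SD, n = 3) were followed by *Cldn2*KO AOM/DSS (5.27 ± 1.62), WT AOM/DSS (3.71 ± 2.62), WT controls (2.53 ± 1.85), *Cldn2*KO recovery (0.917 ± 0.379) and WT recovery (0.717 ± 0.295). Only the *Cldn2*KO controls did not overlap their neighbour in this order.

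Levels of different genes were set side by side per kilobase of exons. In *Cldn2*KO controls the order was *Nr1h4* (31.6 ± 4.42 CPM per kilobase, SD, n = 3), *Fabp2* (27.1 ± 10.3), *Abcc3* (22.8 ± 2.11), *Slc51b* (12.6 ± 1.65), *Slc10a2* (5.19 ± 0.787), *Klb* (4.05 ± 0.636), *Gpbar1* (0.419 ± 0.284) and *Slc51a* (0.387 ± 0.347). *Fabp2* overlapped both *Nr1h4* and *Abcc3*, and *Gpbar1* overlapped *Slc51a*, whereas the other neighbours did not overlap. In *Cldn2*KO recovery the order was *Fabp2* (602 ± 188 CPM per kilobase, SD, n = 3), *Slc10a2* (249.99 ± 77.9), *Slc51b* (195 ± 67.1), *Slc51a* (140.3 ± 37.9), *Nr1h4* (128 ± 43.9), *Abcc3* (51.4 ± 10), *Klb* (0.202 ± 0.0833) and *Gpbar1* (0.138 ± 0.12). From *Slc10a2* to *Nr1h4* each gene overlapped the next, whereas *Fabp2* lay above them and *Abcc3* below. *Slc51b* stood above *Slc51a* per length in each of the 6 recovery libraries, with means of 266 and 152 CPM per kilobase in WT and 195 and 140.3 in *Cldn2*KO. In the *Cldn2*KO controls the subunits lay much farther apart.

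**Figure D2:**
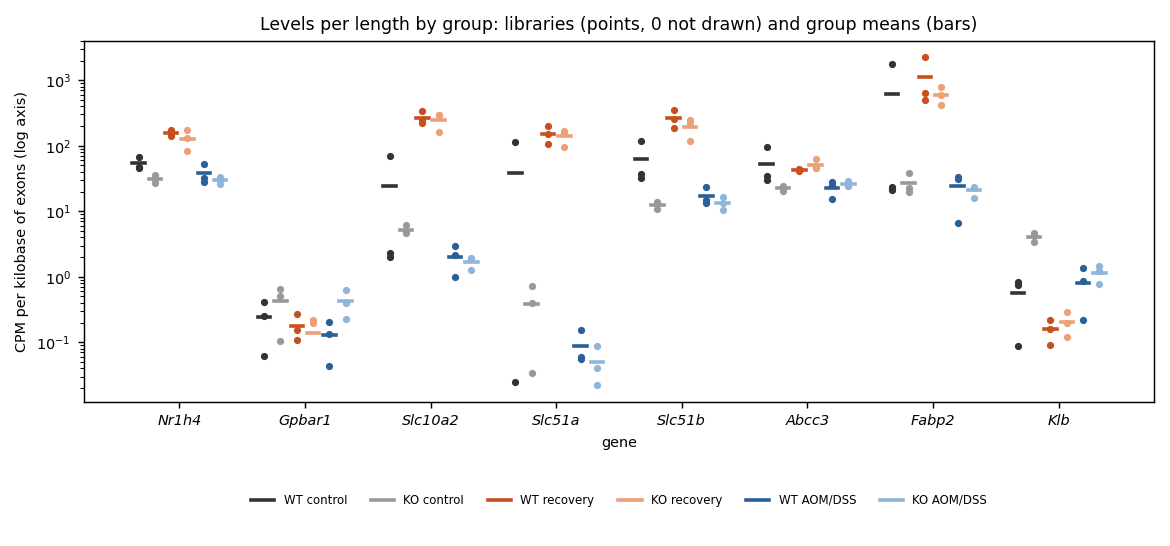
CPM per kilobase of exons (log axis) for each gene and group; points are libraries (0 not drawn) and bars are group means. In the *Cldn2*KO recovery libraries *Slc51a* and *Slc51b* average 140.3 and 195 CPM per kilobase, and in the *Cldn2*KO controls 0.387 and 12.6.

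Sorted by *Hoxb13* alone, 6 of the 8 genes were higher in each of the 7 libraries without *Hoxb13* than in any of the 11 with it, as were 5% of all genes tested. The classes were defined from the data, not by the study, and the levels are given without a test. *Slc10a2* ranged from 286 to 1414 CPM (median 1013) without *Hoxb13* and from 4.07 to 25.3 CPM (median 8.93) with it. *Fabp2* ranged from 405 to 2173 CPM against 6.43 to 37.6 CPM, *Slc51b* from 57.4 to 174 CPM against 5.04 to 18.2 CPM, *Nr1h4* from 157 to 406 CPM against 59.99 to 123 CPM and *Abcc3* from 233 to 538 CPM against 87.9 to 194 CPM. *Klb* was at most 1.30 CPM without *Hoxb13* and 0.993 to 21.1 CPM with it, and *Gpbar1* overlapped.

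The comparison of untreated genotypes gives the baseline of the study. *Klb* was 7.18-fold higher in *Cldn2*KO controls (log2 fold change 2.84, SE 0.66), and *Slc51b* was 4.94-fold lower (-2.31, SE 0.45). These were the 2 of 8 genes called by edgeR at an adjusted p under 0.05, where 1.17% of all genes tested were called. An unadjusted p under 0.05 was reached by 7 of 8, beside 13.1% of all genes. *Nr1h4* (-0.77, SE 0.26) and *Abcc3* (-1.22, SE 0.33) were lower without overlap and were not called. With *Klb* and *Slc51b* this made 4 of 8 genes with groups apart, as were 22.3% of all genes. *Slc10a2* (-2.23, SE 0.95), *Slc51a* (-6.62, SE 1.91), *Fabp2* (-4.49, SE 1.34) and *Gpbar1* (0.75, SE 0.78) overlapped. The median over the 8 genes was -1.72, beside -0.0055 over all genes. Since the genes were selected with these values in view, nothing is read from these counts or the median. The call of *Klb* was lost whichever of the 6 control libraries was left out, and that of *Slc51b* without *Cldn2*KO control replicate 1 or 2, with no change of sign in either gene.

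WT control replicate 2 set the sign of 3 of these differences. Without it *Slc10a2* had a log2 fold change of 1.25 and *Fabp2* of 0.25 in place of negative values. *Slc51a* then rested on 1 read in the WT controls against 35 in the *Cldn2*KO controls, a ratio of 26.9 (exact 95% counting interval 4.52 to 1091.1, counting error only). *Slc51b* (-1.49), *Nr1h4* (-0.58) and *Abcc3* (-0.52) stayed lower and *Klb* (2.33) higher, and of these only *Slc51b* was called. Against the mean of WT control replicates 1 and 3, *Klb* was 5.12-fold and *Slc10a2* 2.41-fold higher in *Cldn2*KO controls. *Slc51b* was 2.76-fold, *Nr1h4* 1.47-fold and *Abcc3* 1.42-fold lower. In these 5 genes and *Slc51a*, the 3 *Cldn2*KO controls did not overlap the other WT controls, as in 38.7% of all genes. The smooth muscle markers also summed higher in *Cldn2*KO controls (7225 to 9601 CPM) than in WT controls (3528 to 5313 CPM), with 6 of 6 log2 fold changes above 0. The sum of hepatocyte markers was higher as well (60.1 to 78.8 CPM against 5.63 to 48.3 CPM). It rested on few genes, since 3 of 6 passed the filter, 2 with log2 fold changes above 0 and 1 below. Markers of small intestinal epithelium summed lower, as given above. edgeR called 0 genes in each of these 3 lists, beside 1.17% of all genes. The part of these markers in the differences was not tested.

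**Figure D3:**
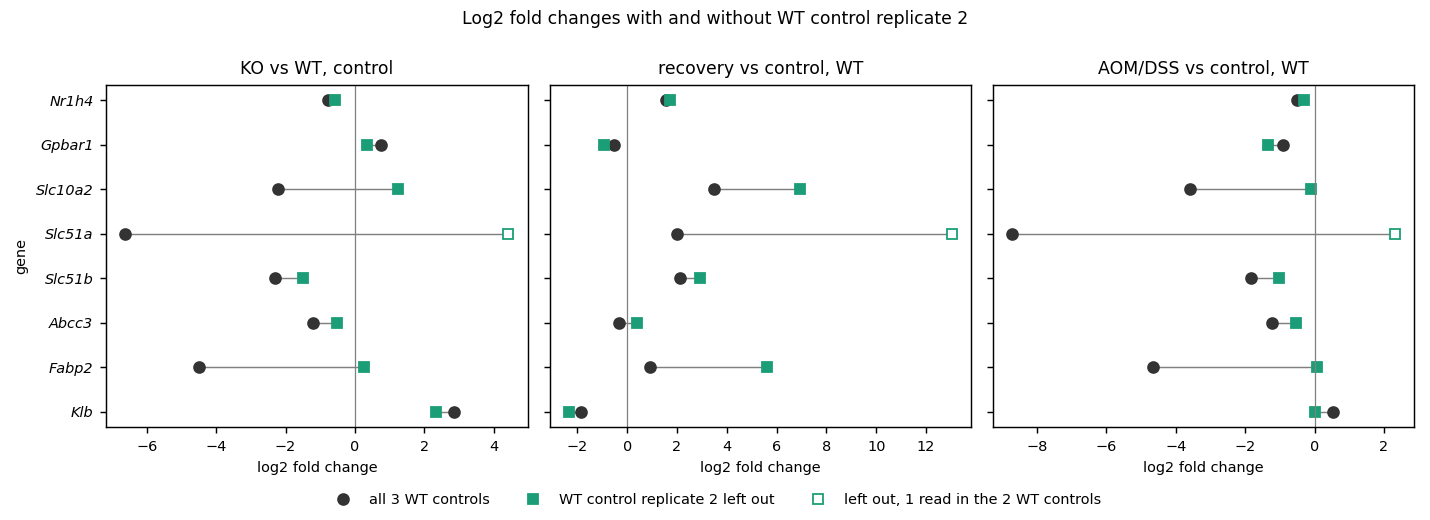
Log2 fold changes of each gene in the 3 comparisons that use the WT controls, with all 3 WT controls (circles) and without WT control replicate 2 (squares, open for *Slc51a*, which then rests on 1 read). *Slc10a2* moves from -2.23 to 1.25 between genotypes in controls, while *Slc51b* and *Klb* keep their sign.

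In recovery and after AOM/DSS no member was called between genotypes. In recovery edgeR called 0 of 8, where 0.974% of all genes were called, and 0 of the 8 had an unadjusted p under 0.05, beside 19.9% of all genes. The log2 fold changes of *Cldn2*KO against WT ran from -0.91 (SE 1.17) for *Fabp2* to 0.37 (SE 0.72) for *Klb*. *Abcc3* alone had groups apart, as had 23.9% of all genes, with a log2 fold change of 0.27 (SE 0.33). After AOM/DSS edgeR called 0 of 8 as well, where 0.0059% of all genes were called, and 0 had an unadjusted p under 0.05, beside 5.6%. Nothing is read from these counts either. *Klb* had a log2 fold change of 0.51 (SE 0.62) there, and *Gpbar1*, on 37 reads against 9, had one of 1.67 (SE 0.82) and was the 1 gene of the 8 with groups apart, as were 11.3% of all genes. DESeq2 also called 0 of the 8 in each of these comparisons, where it called 9.7% of all genes in recovery and 0.00985% after AOM/DSS. These SEs leave room for differences of well over 1 on the log2 scale in *Slc10a2*, *Slc51a*, *Fabp2* and *Klb*.

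Recovery libraries were then compared with the controls of their genotype. In *Cldn2*KO mice 7 of 8 genes were called against 19.4% of all genes. *Slc10a2* rose by 5.59 (SE 1.10), *Slc51a* by 8.49 (SE 2.02), *Slc51b* by 3.96 (SE 0.48), *Fabp2* by 4.47 (SE 1.34), *Nr1h4* by 2.02 (SE 0.27) and *Abcc3* by 1.17 (SE 0.33) on the log2 scale. *Klb* fell by 4.32 (SE 0.72). The groups did not overlap in any of these 7, as in 40.3% of all genes. *Fabp2* lost its call without any 1 of the *Cldn2*KO controls or without *Cldn2*KO recovery replicate 1 or 3, and *Abcc3* without any 1 of the *Cldn2*KO controls or without *Cldn2*KO recovery replicate 3. In WT mice *Nr1h4* (1.54, SE 0.27), *Slc10a2* (3.46, SE 0.99) and *Slc51b* (2.10, SE 0.44) rose, 3 of 8 against 22.2% of all genes. *Klb* (-1.84, SE 0.70), *Fabp2* (0.90, SE 1.17), *Slc51a* (1.99, SE 1.42) and *Abcc3* (-0.32, SE 0.33) were not called. *Slc10a2* lost its call without WT control replicate 1 or WT recovery replicate 3, with no filter, with only the groups compared and with a term for *Xist* above 10 CPM. That term also ended the calls of *Fabp2* and *Abcc3* in *Cldn2*KO recovery.

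Without WT control replicate 2, 6 of 8 genes were called in WT recovery, where 25.1% of all genes were. *Slc10a2* then had a log2 fold change of 6.95, *Fabp2* of 5.63, *Slc51b* of 2.92, *Nr1h4* of 1.73 and *Klb* of -2.35. *Slc51a* had 13678 reads in WT recovery against 1 in WT control replicates 1 and 3. A term for the *Hoxb13* class makes WT control replicate 2 the only control of the class of the recovery libraries. With it, *Slc10a2* (1.96) was called higher and *Abcc3* (-1.15) lower in WT recovery, where 8.72% of all genes were called. In *Cldn2*KO recovery 0 of 8 were called with the term, where the share of all genes called fell from 19.4% to 0.785%. The term turned the sign of *Slc51a* (-4.15), *Fabp2* (-1.84), *Abcc3* (-0.38) and *Gpbar1* (0.75, from -1.57) there. *Slc51b* (2.19), *Nr1h4* (1.47), *Slc10a2* (0.59) and *Klb* (-1.14) kept theirs in *Cldn2*KO recovery. For WT recovery the term turned the sign of *Klb* (0.84, from -1.84), *Fabp2* (-0.65, from 0.90) and *Gpbar1* (1.41, from -0.52). WT control replicate 2 had 286 CPM of *Slc10a2* against 925 to 1414 CPM in WT recovery, and 538 CPM of *Abcc3* against 233 to 251 CPM. For *Slc51a* and *Fabp2* it lay within the range of WT recovery.

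After AOM/DSS the difference from WT controls depended on the same library. In WT mice *Slc10a2* fell by 3.58 (SE 1.01), *Slc51a* by 8.71 (SE 2.23), *Fabp2* by 4.66 (SE 1.35), *Slc51b* by 1.84 (SE 0.44) and *Abcc3* by 1.22 (SE 0.33) on the log2 scale, 5 of 8 against 10.4% of all genes. Without WT control replicate 2, 0 of 8 were called, where 1.99% of all genes were. The count was also 0 without WT AOM/DSS replicate 3, beside 0.982% of all genes, and 1 was called without WT AOM/DSS replicate 1 or 2, beside 8.48% and 9.33%. With the first of these libraries left out, *Slc10a2* had a log2 fold change of -0.10, *Slc51b* of -1.02, *Abcc3* of -0.53, *Fabp2* of 0.077 and *Klb* of 0.027, and *Slc51a* had 9 reads against 1 (ratio 6.08, exact 95% counting interval 0.842 to 266). Among the *Cldn2*KO libraries, which all had *Hoxb13*, 0 of 8 were called, where 0.195% of all genes were. *Klb* (-1.80, SE 0.63) and *Slc10a2* (-1.60, SE 0.94) were lower there without overlap, where 29.1% of all genes had groups apart, and both were called when only the groups compared were fitted, beside 5.87% of all genes. *Klb* averaged 18.4 ± 2.9 CPM in *Cldn2*KO controls and 5.27 ± 1.62 CPM after AOM/DSS (SD, n = 3). The other 6 genes overlapped. Marker sums moved beside these genes. Smooth muscle markers summed to 524 to 2789 CPM after AOM/DSS in WT and to 2183 to 5476 CPM in *Cldn2*KO, each below the controls of its own genotype, and colonocyte markers to 942 to 3420 CPM, also below all controls. Epithelial markers summed to 9110 to 11486 CPM after AOM/DSS in WT, below the WT controls, and to 11267 to 14587 CPM in *Cldn2*KO, which overlapped its controls. In WT edgeR called 4 of 6 colonocyte, 2 of 6 smooth muscle and 2 of 6 epithelial markers lower and 0 higher, and in *Cldn2*KO 0 of each. The part of these markers in the results was not tested.

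**Figure D4:**
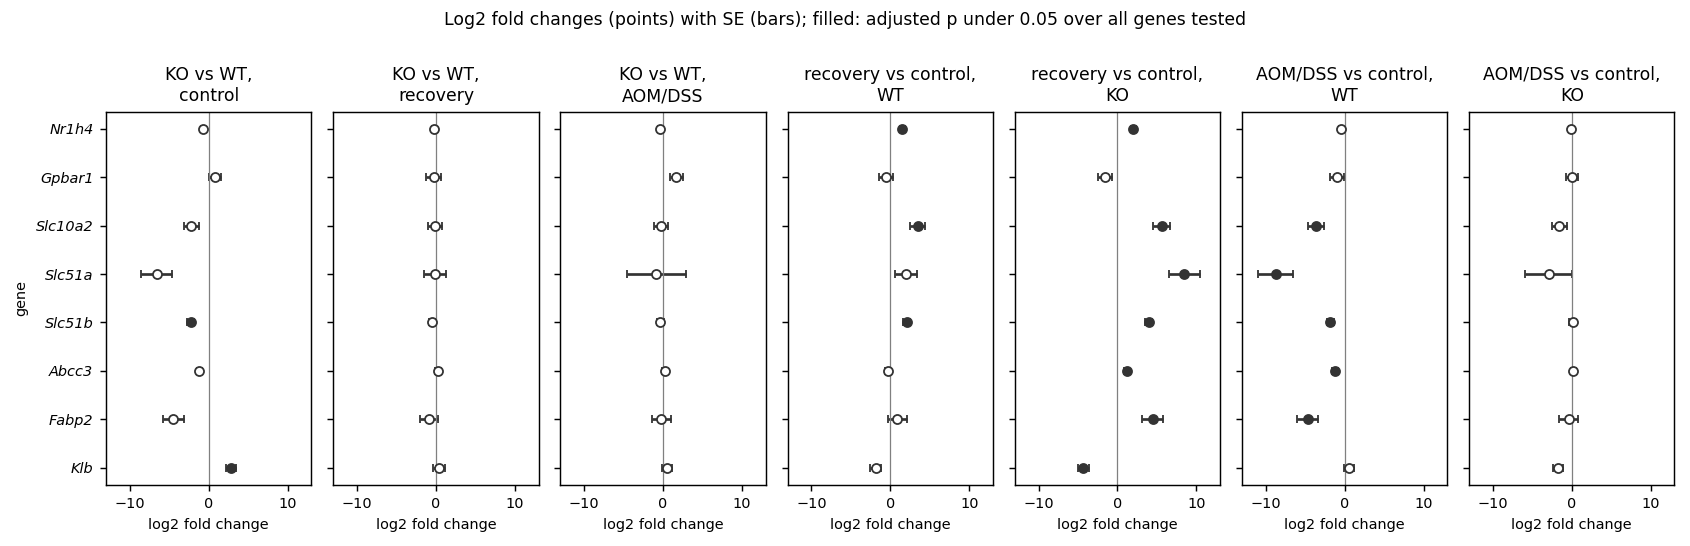
Log2 fold changes (points) with standard errors (bars) of each gene in the 7 comparisons; filled points had an adjusted p under 0.05 over all genes tested. In *Cldn2*KO recovery 7 points are filled, between *Cldn2*KO and WT only *Klb* (2.84) and *Slc51b* (-2.31) in controls.

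Interaction contrasts asked whether the response differed between genotypes. For recovery 0 of 8 genes were called against 0.13% of all genes, and for AOM/DSS 0 of 8 against 0.0118%. An unadjusted p under 0.05 was reached by 4 of 8 in each, beside 18.5% and 8.44% of all genes, and DESeq2 called 2 for recovery, where it called 6.37% of all genes. Nothing is read from these counts, since the genes were selected with the values in view. *Klb* had an interaction of -2.48 (SE 0.97) for recovery and -2.34 (SE 0.89) for AOM/DSS. Without WT control replicate 2 these were -1.98 and -1.82. Leaving out that library turned the sign of 3 genes in both interactions. For recovery *Slc10a2* changed from 2.13 to -1.37 and *Fabp2* from 3.58 to -1.17, and for AOM/DSS *Slc10a2* changed from 1.98 to -1.50 and *Fabp2* from 4.28 to -0.45. *Slc51a* turned from positive to negative in both, on 1 read in the remaining WT controls. Both interactions share the control libraries, so their likeness is not a result.

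Other genes of bile acid sensing, transport, FGF signalling and metabolism formed a list of 46, of which 38 passed the filter. Between genotypes edgeR called 0 of 38 in controls, in recovery and after AOM/DSS, with 9, 2 and 3 at an unadjusted p under 0.05, beside 13.1%, 19.9% and 5.6% of all genes. DESeq2 called 4, 1 and 0, beside 3.7%, 9.7% and 0.00985%. *Fgf15*, the intestinal hormone induced by NR1H4, had at most 2 reads in a library. *Nr0b2*, which encodes the feedback repressor SHP, had 76 reads in WT recovery and 30 in *Cldn2*KO recovery, 2 in WT controls and 0 in the 3 other groups. *Fabp6*, the ileal bile acid binding protein, stood at 32.3, 1.24 and 39.4 CPM in WT controls and at 3.75, 5.49 and 7.75 CPM in *Cldn2*KO controls (a difference of -2.11 on the log2 scale, SE 0.84, edgeR adjusted p 0.284). In recovery *Fabp6* stood at 45.0, 32.6 and 118 CPM in WT and at 18.7, 11.9 and 8.91 CPM in *Cldn2*KO. Those groups were apart (-2.31, SE 0.83, edgeR adjusted p 0.139). *Fabp6* was low in WT control replicate 2, where *Slc10a2* and *Fabp2* were high. With that library left out or with the *Hoxb13* term, edgeR called *Fabp6* lower in *Cldn2*KO controls (-2.69 and -2.66), and these were the calls among 15 alternatives. In recovery it was called in 2 of 14, DESeq2 and the *Hoxb13* term.

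Partners of NR1H4 and of β-Klotho were not called between genotypes. *Rxra*, the partner of NR1H4 on DNA, had log2 fold changes of -0.48 in controls, 0.59 in recovery and 0.30 after AOM/DSS (edgeR adjusted p at least 0.286). *Vdr* (at most 0.26 in size) and *Nr1i2* (at most 0.10), receptors that also sense bile acids, had edgeR adjusted p of at least 0.891. In controls *Rxra* (0.13) and *Vdr* (0.12) turned positive when WT control replicate 2 was left out. Of the FGF receptors that pair with β-Klotho, *Fgfr1* had log2 fold changes of 0.65, 0.55 and 0.87, *Fgfr2* of -0.88, 0.11 and 0.016, *Fgfr3* of 0.92, -0.11 and 0.40 and *Fgfr4* of 0.56, 0.65 and 0.30, with edgeR adjusted p of at least 0.262. Leaving out WT control replicate 2 gave 0.58, 0.25, 0.65 and 0.24 in controls for *Fgfr1*, *Fgfr2*, *Fgfr3* and *Fgfr4*, with a change of sign in *Fgfr2*. *Fgfr4*, the main FGF15 receptor of the liver, averaged 5.72 ± 2.47 CPM in WT controls and 8.49 ± 1.73 CPM in *Cldn2*KO controls (SD, n = 3).

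In recovery edgeR called 9 of the 38 in WT, 2 higher and 7 lower, with a median log2 fold change of -0.29 beside -0.039 over all genes. With WT control replicate 2 left out it called 15 in WT, 8 higher and 7 lower, beside 25.1% of all genes. The count was 4 without WT control replicate 1 or WT recovery replicate 3, beside 10.7% and 13.6%, and 5 without WT recovery replicate 1, beside 17.5%. In *Cldn2*KO it called 14, 7 in each direction, with a median of -0.10 beside 0.0037. These shares of 23.7% and 36.8% stand beside 22.2% and 19.4% of all genes. The xenobiotic and bile acid hydroxylase gene *Cyp3a11* had 0 reads in either control group and was at least 29.1-fold higher in WT recovery (edgeR adjusted p 0.000996) and at least 9.4-fold higher in *Cldn2*KO recovery (edgeR adjusted p 0.00376), taken at 3 reads over the control group. *Cyp3a11* has close relatives and is uncertain. *Fabp1* rose in WT from 5 to 57 reads (ratio 12.1, counting interval 4.9 to 38.8, edgeR adjusted p 0.0353).

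The remaining named genes of the list moved as follows in recovery. The prostaglandin transporter gene *Slco2a1* (-1.54, edgeR adjusted p 0.0026), *Cyp7b1* of the acidic bile acid synthesis pathway (-1.56, edgeR adjusted p 0.0145), *Fgfr1* (-1.34, edgeR adjusted p 0.0158), the nuclear receptor gene *Nr1i3* (-2.69, edgeR adjusted p 0.0256), the muscarinic receptor gene *Chrm2* (-1.91, edgeR adjusted p 0.0264) and *Hnf4a* (-0.60, edgeR adjusted p 0.0418) fell in WT. In *Cldn2*KO the organic anion transporter gene *Slco4a1* (2.39, edgeR adjusted p 0.000935), the glucuronidation gene *Ugt1a1* (5.19, edgeR adjusted p 0.00107), *Ppara* (4.09, edgeR adjusted p 0.00239) and *Malrd1* (9.70, edgeR adjusted p 0.00326), a regulator of FGF15 secretion, rose. *Chrm2* (-3.02, edgeR adjusted p 0.00293), *Chrm3* (-2.08, edgeR adjusted p 0.00504), *Fgfr1* (-1.44, edgeR adjusted p 0.0106) and *Fgfr3* (-1.22, edgeR adjusted p 0.0259) fell. *Ugt1a1* shares exons with other *Ugt1a* genes and is uncertain. In WT the call of *Hnf4a* was lost when any 1 library of the comparison was left out, that of *Fabp1* without WT control replicate 1 or 3 or WT recovery replicate 2 or 3, and that of *Chrm2* without WT control replicate 1 or any 1 recovery library. *Nr1i3* lost its call in WT without WT control replicate 1 or WT recovery replicate 1 or 2, and *Fgfr1* without WT control replicate 1 or WT recovery replicate 3. In *Cldn2*KO *Fgfr3* lost its call without *Cldn2*KO control replicate 1 or 2 or *Cldn2*KO recovery replicate 2. The other named genes kept their calls in recovery whichever library was left out. With WT control replicate 2 left out, *Hnf4a* had a log2 fold change of -0.49, *Slco2a1* of -1.23, *Cyp7b1* of -1.47, *Fgfr1* of -1.41, *Nr1i3* of -3.02 and *Chrm2* of -2.03 in WT. With the *Hoxb13* class as a term, under which 8.72% and 0.785% of all genes were called in WT and *Cldn2*KO recovery, *Slco2a1* and *Cyp3a11* in WT were the named genes still called. The sizes did not move alike. In *Cldn2*KO *Chrm2* (-2.70), *Fgfr1* (-1.28) and *Cyp3a11* had about the same log2 fold change with the term, as did *Cyp7b1* (-1.77), *Fgfr1* (-1.23) and *Chrm2* (-1.69) in WT. *Malrd1* (0.49), *Ppara* (1.19), *Ugt1a1* (1.82), *Slco4a1* (1.22), *Chrm3* (-1.45) and *Fgfr3* (-0.29) in *Cldn2*KO were smaller. So were *Fabp1* (1.83) and *Nr1i3* (-1.64) in WT, whereas *Slco2a1* (-2.04) and *Hnf4a* (-0.82) in WT were larger in size. *Chrm2* and *Chrm3* are expressed in smooth muscle, whose markers were lower in recovery as given above. The part of these markers in the values of *Chrm2* and *Chrm3* was not tested.

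After AOM/DSS edgeR called 11 of the 38 in WT, 1 higher and 10 lower, with a median of -0.79 beside 0.0076 over all genes, and a share of 28.9% beside 10.4%. In *Cldn2*KO it called 1 of the 38, beside 0.195% of all genes. *Slco2a1* fell in both, by 2.27 in WT (SE 0.30, edgeR adjusted p 0.00161) and by 1.60 in *Cldn2*KO (SE 0.29, edgeR adjusted p 0.0384). The call in *Cldn2*KO was lost in 6 of 14 alternatives, without any 1 of the *Cldn2*KO controls, without *Cldn2*KO AOM/DSS replicate 1 or 3 and with the *Xist* term. In WT the sulfotransferase gene *Sult2b1* (-1.60, edgeR adjusted p 0.0135), *Ugt1a1* (-3.60, edgeR adjusted p 0.0225), *Hnf4a* (-0.82, edgeR adjusted p 0.0246), the efflux pump gene *Abcg2* (-1.62, edgeR adjusted p 0.025), *Fgfr1* (-1.31, edgeR adjusted p 0.0345), *Rxra* (-1.05, edgeR adjusted p 0.0395) and *Vdr* (-1.31, edgeR adjusted p 0.0417) fell as well. *Fgfr4* rose, from 5.72 ± 2.47 to 15.2 ± 4.95 CPM (n = 3, SD). This was a change of 1.40 on the log2 scale (edgeR adjusted p 0.0372, SE 0.39). When WT control replicate 2 was left out, 3 of the 38 were called, beside 1.99% of all genes, and of the genes named here only *Slco2a1* (-1.95) and *Sult2b1* (-1.33) were among them. The sizes of the others moved unlike with the *Hoxb13* class as a term. *Fgfr1* (-1.36), *Hnf4a* (-0.70), *Fgfr4* (1.095) and *Vdr* (-0.97) changed less than *Ugt1a1* (-1.58), *Abcg2* (-0.83) and *Rxra* (-0.42), which shrank. Without WT AOM/DSS replicate 3 only *Slco2a1* was called, beside 0.982%, without WT control replicate 1 the count was 7, beside 6.24%, and with only the groups compared it was 0, beside 0.0447%. *Fgfr4* in *Cldn2*KO had a change of 1.13 (edgeR adjusted p 0.194, SE 0.39) with groups apart, and its difference in response between genotypes was -0.27 (SE 0.54, edgeR adjusted p 0.916).

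The genes whose pattern over the 18 libraries lay nearest were sought for the 6 genes with an SD of at least 1 in log2 CPM, among 13241 candidates, by the root mean square difference of centred log2 CPM. For *Klb* these were *Ggh* (0.59), *Ahnak2* (0.68) and *Atp7b* (0.73). For *Slc10a2* they were *Hkdc1* (0.71), *Cyp4b1* (0.78) and *Ugt8a* (0.87), and for *Slc51a* *Ugt2b5* (0.82), *Abca12* (0.95) and *Malrd1* (1.14). For *Slc51b* they were *Lrat* (0.56), *Slc35d1* (0.58) and *Fam162a* (0.60), for *Fabp2* *Ugt2b36* (0.53), *Ces1g* (0.66) and *Ncoa7* (0.68), and for *Nr1h4* *Far2* (0.31), *Aspg* (0.33) and *Rnase4* (0.34). No gene was nearest to more than 1 member among these 18.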

How the data were processed

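RNA-seq was performed on colon RNA from 18 libraries in 6 groups of genotype and treatment, taken from the labels. Per the study's methods, reads from an Illumina NovaSeq6000 were mapped with TopHat2, counted with featureCounts and tested with DESeq2. The submitters' processing notes name HISAT2 in place of TopHat2, and they name GRCm38 and Subread, the package that holds featureCounts. Strand setting and versions were not given in the sources used here. The values the authors deposited are unnormalized read counts of each gene, in 36 columns for 18 libraries and 2 lanes. The lanes of each library were added up, since their chi-square over its degrees of freedom was 1.08 to 1.18, against 11.9 or more between replicates. Depth was 17.6 to 27.4 M reads per library.

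Symbols came from GENCODE M21 (47310 of 47729 genes matched). filterByExpr kept 16937 genes. edgeR 4.0.16 in R 4.3.3 (TMM scaling, quasi-likelihood, robust, all 18 libraries, Benjamini-Hochberg over all genes kept, called at an adjusted p under 0.05) gave log2 fold changes with standard errors. SEs were taken as the size of the log2 fold change over the root of the F statistic. The common dispersion was 0.0993. Levels are TMM-scaled CPM. A ratio against a group of 1 to 5 reads was taken from pooled CPM with its exact 95% interval, and against 0 reads as a bound at 3 reads over the group. Both cover counting error only.

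The 8 genes, the 46 listed pathway genes, the marker lists and the *Hoxb13* and *Xist* terms were chosen with earlier results of these data known. All 8 were described. Of the pathway list, up to 8 called genes per comparison were named by smallest adjusted p, plus *Fgf15*, *Fabp6*, *Nr0b2*, *Fgfr1* to *Fgfr4*, *Rxra*, *Vdr* and *Nr1i2*. The marker lists were distal *Hox* genes, smooth muscle, macrophages, epithelium, colonocytes, small intestinal epithelium, enteroendocrine cells, adipocytes and hepatocytes. Other sums were as follows. After AOM/DSS macrophage markers summed to 124 to 292 CPM, the small intestinal list to 127 to 1275 CPM, adipocyte markers to 10.7 to 47.2 CPM and hepatocyte markers to 34.6 to 81.2 CPM. In recovery adipocyte markers summed to 53.9 to 156 CPM and hepatocyte markers to 2.32 to 13.6 CPM. Enteroendocrine markers summed to 85.6 to 304 CPM in WT controls, 209 to 270.0 CPM in *Cldn2*KO controls, 196 to 725 CPM in recovery and 87.4 to 380 CPM after AOM/DSS. Alternatives were RLE and upper quartile scaling, other filters, DESeq2 1.42.0, fits of only the groups compared, both terms, a replicate block and leaving out each library. The scripts were tested on simulated data.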

Additional observations from a re-analysis of the deposited data

Results flagged for a closer look

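*Abcc3* moved in opposite directions between the genotypes in controls and in recovery, with groups that did not overlap in either, as in 22.3% and 23.9% of all genes. Its log2 fold change of *Cldn2*KO against WT was -1.22 (SE 0.33) in controls and 0.27 (SE 0.33) in recovery, and the difference between them, the interaction, was 1.49 (SE 0.47), which edgeR did not call. Without WT control replicate 2 the values in controls and for the interaction were -0.52 and 0.78.

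*Abcg8*, a subunit of the sterol exporter, did so between controls and AOM/DSS. Its log2 fold change was 1.07 (SE 0.69, edgeR adjusted p 0.569) in controls and -0.68 (SE 0.68, edgeR adjusted p 0.920) after AOM/DSS, with an interaction of -1.75 (SE 0.98, edgeR adjusted p 0.638). Without WT control replicate 2 the value of *Abcg8* in controls was 0.52 and its interaction -1.20.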

How the results depend on the processing

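Counts called were recomputed under 146 alternatives that left out no library, and 117 stayed within 1.5 times of the reported count. The others follow, with the share of all genes called. Of the 8 genes 2 were called between genotypes in controls (1.17%). It was 1 under upper quartile scaling (1.09%), no filter (0.544%), the *Hoxb13* term (1.14%) or the *Xist* term (0.939%), 0 when only the groups compared were fitted (0.843%) and 5 under DESeq2 (3.7%). *Klb* lost its call in 12 of 15 alternatives (log2 fold change 2.33 to 3.24) and *Slc51b* in 4 of 15 (-2.62 to -1.46). In *Cldn2*KO recovery (7 called) it was 0 with the *Hoxb13* term (0.785%). In WT AOM/DSS (5 called) it was 1 with no filter (3.09%), 0 for only the groups compared (0.0447%) or the *Hoxb13* term (1.89%) and 3 with the *Xist* term (7.49%). In *Cldn2*KO AOM/DSS (0 called) it was 2 for only the groups compared (5.87%) and 1 with the *Hoxb13* term (1.04%), and DESeq2 gave 2 for the recovery interaction (6.37%). For the 38 pathway genes, DESeq2 gave 4 in controls, 1 in recovery (9.7%), 2 for the recovery interaction and 17 in WT AOM/DSS (16.9%), and the *Hoxb13* term gave 1 between genotypes in controls and in recovery (3.18%), 2 in *Cldn2*KO recovery and 2 in WT AOM/DSS. Only the groups compared gave 5 in WT recovery (11.8%), 0 in WT AOM/DSS and 7 in *Cldn2*KO AOM/DSS. No filter gave 6 in WT AOM/DSS, and the *Xist* term gave 9 in *Cldn2*KO recovery (11.1%) and 0 in *Cldn2*KO AOM/DSS (0.0295%). The cause of these changes was not tested.

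Leaving out each library in turn gave 0 to 4 of the 8 genes between genotypes in controls (0 without *Cldn2*KO control replicate 1 or 2, beside 0.144% and 0.27% of all genes, 1 without WT control replicate 2 or *Cldn2*KO control replicate 3, beside 1.14% and 1.67%, 4 without WT control replicate 1, beside 1.73%), 2 to 6 in WT recovery (6 without WT control replicate 2), 5 to 7 in *Cldn2*KO recovery and 0 to 5 in WT AOM/DSS (0 without WT control replicate 2 or WT AOM/DSS replicate 3, 1 without WT AOM/DSS replicate 1 or 2). For the 38 it gave 0 to 1 in controls (1 without WT control replicate 1, 2 or 3), 4 to 15 in WT recovery (4 without WT control replicate 1 or WT recovery replicate 3, 5 without WT recovery replicate 1, 15 without WT control replicate 2), 9 to 13 in *Cldn2*KO recovery (9 without *Cldn2*KO control replicate 1 or 2 or *Cldn2*KO recovery replicate 2), 1 to 12 in WT AOM/DSS (7 without WT control replicate 1, 3 without WT control replicate 2, 1 without WT AOM/DSS replicate 3) and 0 to 3 in *Cldn2*KO AOM/DSS (3 without *Cldn2*KO AOM/DSS replicate 2, 0 without each other library of the comparison).

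Values called in the reported fit, of the 8 genes and of the pathway list, changed sign under 2 settings. With the *Hoxb13* term, *Slc51a* (-4.15), *Abcc3* (-0.38) and *Fabp2* (-1.84) reversed in *Cldn2*KO recovery, as did the pathway genes *Abcg8* (1.64, from -2.24), *Fabp1* (-0.71) and *Abcg2* (-0.48), and *Slc51a* (2.34), *Fabp2* (0.097) and *Malrd1* (1.77) in WT AOM/DSS. Without WT control replicate 2, *Slc51a* (2.33, on 1 read in the WT controls), *Fabp2* (0.077) and *Malrd1* (1.75) reversed in WT AOM/DSS. Over the libraries left out in turn, *Slc51a* ranged from -9.30 to 2.33, *Fabp2* from -5.23 to 0.077 and *Malrd1* from -6.44 to 1.75 there. RLE and upper quartile scaling moved no comparison by more than 0.0972 on the log2 scale and reversed none.

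WT and *Cldn2*KO controls share replicate numbers. Same-numbered controls had correlations of deviations of 0.157, 0.0023 and 0.0794, and differently numbered controls had -0.168 to 0.0803. With 3 libraries per group these values cannot decide whether the controls were paired. With the replicate block, 0 of the 8 genes and 0 of the 38 were called between genotypes in controls, where 0.135% of all genes were, against 1.17% without it. Depth limits *Gpbar1* (0 to 21 reads), and *Slc51a* wherever *Hoxb13* was present (0 to 21 reads).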
